A study of Mus musculus with 18 samples.

Results

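The genes described here encode the proteins of the mitochondrial ribosome. They were chosen as every gene whose symbol starts with Mrpl (large subunit) or Mrps (small subunit) followed by a digit and that reached 0.23 CPM (counts scaled to library size) in at least 6 mice. Of 82 matching genes among 30072 in the count table, 79 passed: 50 of the large subunit and 29 of the small subunit. They were read against the 15054 genes that passed the same minimum. The 3 that did not pass were pseudogenes of Mrps36, Mrps36-ps1, Mrps36-ps2 and Mrps36-ps3, with at most 1 count in any mouse. Among the 79, 77 were protein-coding and Mrpl23-ps1 and Mrpl48-ps were processed pseudogenes. Mrpl33 was not analysed here.

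RNA was sequenced from the heart of 18 CD-1 mice, an outbred strain that the labels place on a mixed background, of both sexes and at least 8 weeks old. In the ctrl group, 6 mice had isoflurane anesthesia and CT imaging but no irradiation by the treatment beam. The 2wk and 6wk groups, 6 mice each, had the same anesthesia and imaging, were irradiated once with 25 Gy and were sampled 2 or 6 weeks later. The time from sham treatment to sampling is not given for ctrl, so age and time may differ between groups. The labels call the tissue intraventricular septum and the study's methods describe ventricular tissue, and each library is bulk RNA of 1 mouse. No genotype, transgene or drug separated the groups, and each irradiated group shared the same 6 ctrl mice as its comparison.

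Mitochondria keep a ribosome of their own, which makes the few proteins encoded by mitochondrial DNA, all of them subunits of the respiratory chain or of ATP synthase. Its RNAs come from the mitochondrial genome, but its proteins are all encoded in the nucleus, made in the cytosol and imported. Some are relatives of bacterial ribosomal proteins, and others are found only in mitochondria. Heart muscle, which draws most of its energy from respiration, is rich in mitochondria.

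Total estimated counts per mouse ran from 11522979 to 15501002, with a median of 13682439. The cardiomyocyte markers were abundant in every mouse, with Myh6, the main myosin heavy chain of mouse heart, at a mean of 18880 CPM in ctrl. The defining T and B cell markers Cd3e and Cd79a lay below 1 CPM on average in each group. Summed atrial myocyte markers, the genes that mark the upper chambers, had a median of 337 CPM and a highest value of 1583 CPM in ctrl mice. Counts from mitochondrial DNA took 19.8% to 25.0% of the total in ctrl, 17.8% to 20.6% at 2wk and 16.5% to 20.05% at 6wk.

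In the promoters, stretches of DNA just before a gene's start, the members often held short motifs of factors known from nuclear genes for mitochondria: NRF1, ETS factors such as GABP (CCGGAAG) and YY1 (AAGATGGC), each on both strands. RefSeq windows of 300 bases, 250 before and 50 after the start, on GRCm38.p6 matched 68 members with 74 windows, and 11 members had none. At least 1 of the 3 motifs stood in 57.4% of large-subunit windows and 55.6% of small-subunit windows, against 25.4% of the windows of all genes tested and 14.7% of all windows. NRF1 stood in 21.3% of large-subunit and 11.1% of small-subunit windows, against 8.89% for all genes tested. The ETS motif stood in 29.8% and 40.7%, against 15.6%, and the YY1 motif in 12.8% and 22.2%, against 3.94%. The GC box GGGCGG, which binds SP factors, was no more frequent in large-subunit windows (44.7%) than among all genes tested (60.0%), and stood in 66.7% of small-subunit windows. A match describes letters and not binding. These letter patterns can share bases, and a window was counted once for each motif it held.

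The windows below belong to Mrpl44, with the largest change of any member called at 6wk, Mrps27 and Mrpl42, called members of the small and the large subunit, and Mrpl45, chosen after the windows were seen because it held 3 NRF1 motifs. Capitals mark NRF1, ETS and YY1 motifs on either strand. All are RefSeq sequence on GRCm38.p6, read in the direction of the gene.
Mrpl44 (chr1:79775768-79776067, plus strand): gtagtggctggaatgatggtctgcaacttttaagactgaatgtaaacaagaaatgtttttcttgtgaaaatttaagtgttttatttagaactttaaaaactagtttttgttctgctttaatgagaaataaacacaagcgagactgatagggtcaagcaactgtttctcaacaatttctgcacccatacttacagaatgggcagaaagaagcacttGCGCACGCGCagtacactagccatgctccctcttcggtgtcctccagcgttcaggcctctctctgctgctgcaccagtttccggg
Mrps27 (chr13:99344536-99344835, plus strand): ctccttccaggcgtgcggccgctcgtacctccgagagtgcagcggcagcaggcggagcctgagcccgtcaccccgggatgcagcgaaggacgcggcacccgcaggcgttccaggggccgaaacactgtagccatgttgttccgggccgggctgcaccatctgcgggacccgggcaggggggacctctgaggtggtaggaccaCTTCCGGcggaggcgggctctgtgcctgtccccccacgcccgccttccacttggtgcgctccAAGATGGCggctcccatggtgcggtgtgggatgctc
Mrpl42 (chr10:95501900-95502199, minus strand): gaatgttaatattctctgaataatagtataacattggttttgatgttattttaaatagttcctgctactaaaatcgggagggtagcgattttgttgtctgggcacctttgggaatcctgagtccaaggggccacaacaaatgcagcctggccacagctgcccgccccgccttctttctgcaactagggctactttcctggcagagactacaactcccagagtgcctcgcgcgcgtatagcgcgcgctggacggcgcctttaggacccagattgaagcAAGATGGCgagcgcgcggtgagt
Mrpl45 (chr11:97315466-97315765, plus strand): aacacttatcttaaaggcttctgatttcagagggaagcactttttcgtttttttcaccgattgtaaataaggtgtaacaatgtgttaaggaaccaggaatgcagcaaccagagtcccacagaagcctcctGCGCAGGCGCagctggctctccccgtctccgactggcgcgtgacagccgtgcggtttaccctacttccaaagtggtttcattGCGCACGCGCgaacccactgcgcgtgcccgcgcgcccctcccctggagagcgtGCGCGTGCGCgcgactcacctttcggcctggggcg

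The single capital run of Mrpl44 was an NRF1 motif that began 35 bases before the gene start. Mrps27 carried an ETS motif that began 48 bases before the start and a YY1 motif that began 14 bases after it, and Mrpl42 a YY1 motif that began 27 bases after its start. No NRF1, ETS or YY1 motif was found in the windows of Mrpl28, Mrps31, Mrpl50 or Mrps17. Another shared feature was a close neighbour that starts on the opposite strand: 18 of 77 protein-coding members (23.4%) had one within 1000 bases, against 9.33% of 14309 protein-coding genes tested. Pairs of this kind were Mrpl50 with Zfp189, Mrps27 with Ptcd2 (itself a protein of mitochondrial RNA) and Mrps12 with Sars2, the mitochondrial seryl-tRNA synthetase. The members lay on 17 chromosomes, with none on X or Y.

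Members of one ribosome did not have equal mRNA levels. Per length, as TPM (abundance adjusted for transcript length) in ctrl mice, the 48 protein-coding large-subunit genes ran from 5.44 (Mrpl19) to 414 (Mrpl42), with a median of 34.2. The 29 small-subunit genes ran from 2.06 (Mrps23) to 249 (Mrps21), with a median of 30.6, whereas the median of all genes tested was 5.28. Mrpl42, a large-subunit protein found only in mitochondria, had 414 ± 16.1 TPM (SD, n = 6), and the next protein-coding large-subunit gene by the same scale was Mrpl12 with 100.2 ± 16.2 TPM. Mrpl12 makes the stalk protein that recruits translation factors. In the small subunit Mrps21 (249 ± 37.2 TPM), Mrps36 (126 ± 16.7 TPM) and Mrps16 (119 ± 6.54 TPM) were the highest. The last 2 differed by less than the SD of Mrps36. Mrps36 is named as a ribosomal protein but is known as a part of the 2-oxoglutarate dehydrogenase complex. At the low end, Mrps30 had 5.32 ± 0.707 TPM and Mrps35 6.11 ± 1.47 TPM, a difference smaller than the SD of Mrps35.

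The pseudogene Mrpl23-ps1 shares most of its sequence with Mrpl23. Mrpl23 had 6.85 ± 1.51 TPM in ctrl whereas the pseudogene, which has no known protein, was listed at 131 ± 12.3 TPM. Of the pseudogene's 31-base words, 94.6% also occur in Mrpl23, so the split between the 2 genes is uncertain. Their CPM summed to 35.7 in the lowest, 43.6 in the median and 48.6 in the highest ctrl mouse, and the pseudogene took 89.1% to 94.5% of that sum. Mrpl48-ps was near the detection floor (3 counts, 0.194 to 0.260 CPM per mouse), with 0.278 to 1.30 CPM in ctrl.

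Whether the mRNAs of the mitochondrial ribosome change after irradiation was read from each irradiated group against ctrl and from the later against the earlier time. At 6wk, compared with ctrl, the genes lay lower together: 75 of 79 had a lower mean, and the median log2 fold change was -0.28 in both subunits, against -0.02 for all genes tested. In edgeR's quasi-likelihood test with Benjamini-Hochberg adjustment, 22 of 50 large-subunit and 10 of 29 small-subunit genes fell and none rose. That is 40.5% of the members called, against 25% of all genes tested called in either direction, 11.5% called lower and 13.5% called higher. At an unadjusted p under 0.05 the counts were 30 and 17, which is 47 of 79 members, and again none rose. Among all 15054 genes tested, 5456 had such a p in either direction. DESeq2 called 23 and 11 lower and none higher, and its share over all genes is not given here. Changes were small except for Mrpl44: of the 22 large-subunit genes the changes ran from -1.29 to -0.22, and of the 10 small-subunit genes from -0.48 to -0.21 on the log2 scale. The plot of every gene's change at 6wk shows this shift. Without ctrl mouse 5, or without ctrl mouse 6, the small-subunit count was 6.

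**Figure D1:**
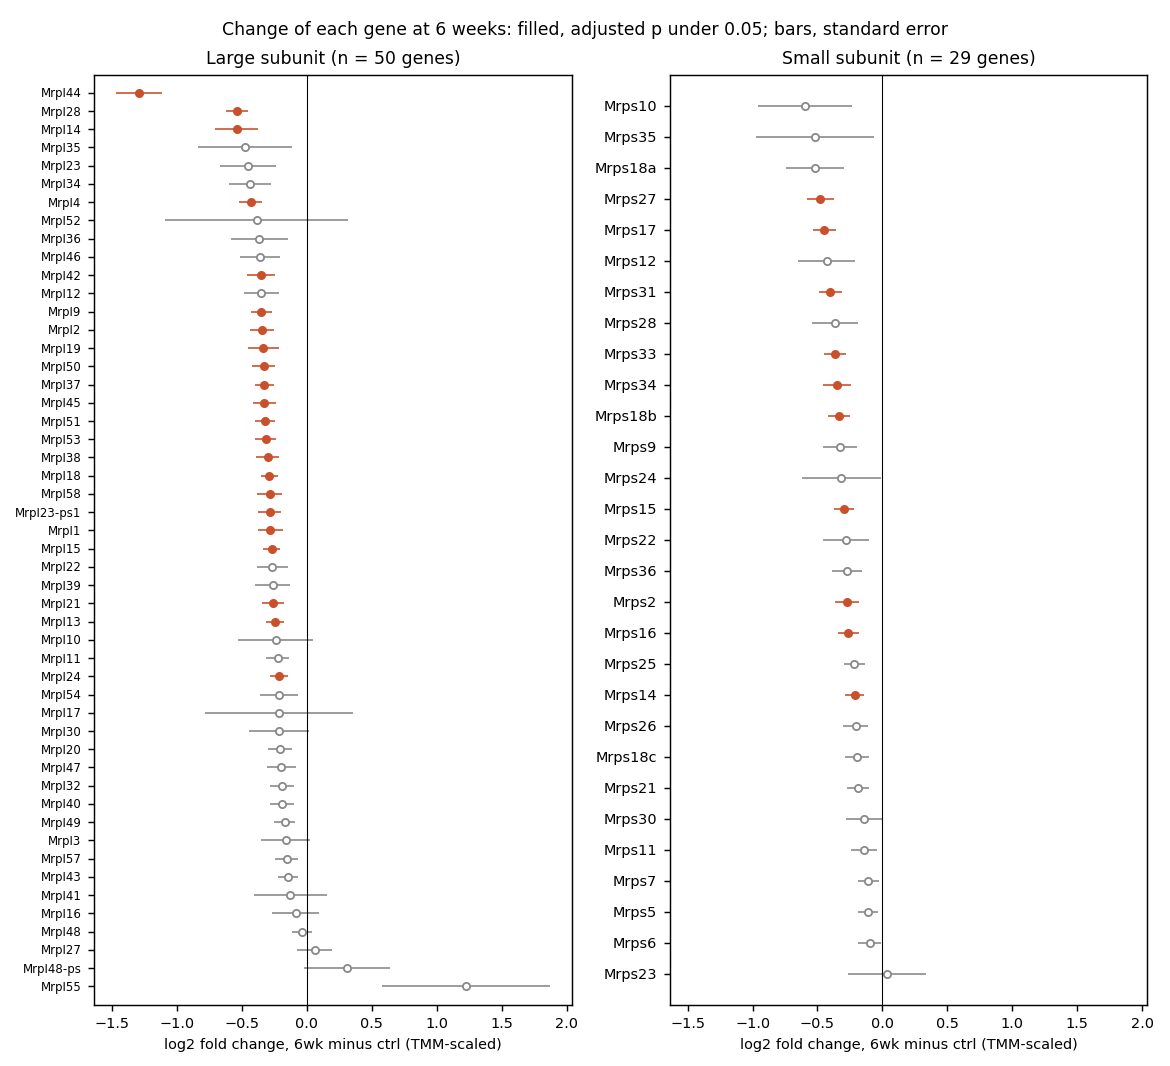
Log2 fold change of each member, 6wk minus ctrl, on TMM-scaled counts (x axis), with 1 row per gene sorted by its value, large subunit on the left and small on the right. Points are estimates and bars standard errors, filled points had an adjusted p under 0.05 in edgeR's quasi-likelihood test. Nearly all points lie left of 0, with Mrpl44 farthest left at -1.29 and the unfilled Mrpl55 at 1.22 farthest right.

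This direction depends on the scale against which it is read. TMM, the scaling used here, takes most genes as unchanged and so sets the typical gene near 0. With library size only, the median of all genes tested moved to 0.15 at 2wk and 0.24 at 6wk, the members' medians at 6wk were -0.01 (large) and -0.02 (small), and 2 members fell and 1 rose. On log2(TPM + 1) the median of all genes tested was 0.29 at 6wk and the members' medians were positive, at 0.10 and 0.12, with 12 members called higher by limma and 1 lower. The shares of all genes called with library size only and on log2(TPM + 1) are not given here. The called counts on these scales are therefore not read as a rise or fall of the members. Relative to the median of all genes tested, the members lay lower on each of the 3 scales at 6wk, by -0.26 (TMM), -0.26 (library size only) and -0.17 (TPM). At 2wk these values were -0.15, -0.14 and -0.09.

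The summed level of the members in single mice shows the same contrast between scales. Summed TMM-scaled CPM had a lowest, median and highest value of 2441, 2873 and 3149 in ctrl, 2455, 2540 and 2649 at 2wk, and 2151, 2267 and 2569 at 6wk. Summed CPM with library size only were 2410, 2607 and 2819 in ctrl, 2442, 2560 and 2676 at 2wk, and 2375, 2524 and 2682 at 6wk. The groups overlapped on both scales, and on the first 5 of 6 mice at 6wk lay under the lowest ctrl mouse. Summed TPM were 3260, 3624 and 3961 in ctrl, 3346, 3794 and 3983 at 2wk, and 3653, 3890 and 4065 at 6wk. The ratio of the large to the small subunit in summed TPM was 1.73 to 1.89 in ctrl, 1.70 to 1.82 at 2wk and 1.73 to 1.94 at 6wk, so that the groups overlapped here too.

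**Figure D2:**
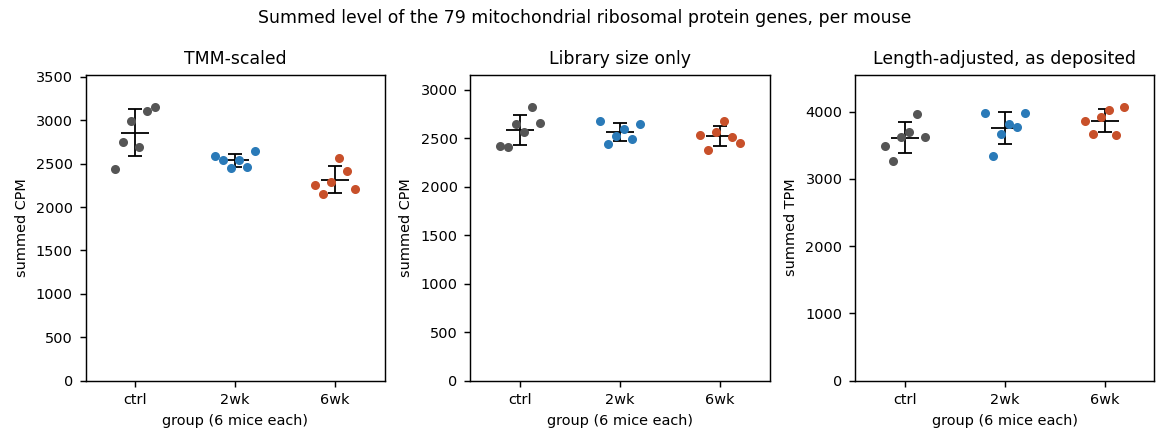
Summed level of the 79 members in each mouse by group (x axis), as TMM-scaled CPM, as CPM with library size only and as TPM (y axes, from 0). Points are mice, black lines the mean and SD of 6 mice. The 6wk median is below the ctrl median on the TMM scale (2267 and 2873 CPM), near it with library size only (2524 and 2607 CPM) and above it in TPM (3890 and 3624).

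Mrpl44 stood out. It makes a large-subunit protein with a fold of the ribonuclease III family, found only in mitochondria, and variants of the human gene are known to cause a cardiomyopathy. The gene (ENSMUSG00000026248) lies on chromosome 1, GRCm38 chr1:79776018-79781445, plus strand. In ctrl mice the lowest, median and highest values were 28.5, 35.2 and 38.3 CPM, at 2wk 19.0, 28.3 and 30.6, and at 6wk 8.67, 14.1 and 18.8. Every 6wk mouse lay under every 2wk mouse and every ctrl mouse, and the 2wk and ctrl mice overlapped. Between 6wk and ctrl the log2 fold change was -1.29 (SE 0.18, adjusted p = 4.308e-05), called and past 1 in size, as were 5.95% of all genes tested, and no other member was both. From 2wk to 6wk it fell by 0.89 (SE 0.18, adjusted p = 0.009648), and at 2wk against ctrl the difference was -0.40 (SE 0.17, adjusted p = 0.1878). Scaled by library size only, the 6wk value was -1.03 (adjusted p = 0.0001727), and on log2(TPM + 1) it was -0.97 (limma, adjusted p = 0.0006313). Leaving out any 1 mouse gave -1.39 to -1.19. Of its 31-base words, 5.95% also occur in Wdfy1, a gene that overlaps it on the opposite strand, whose mean was 33.4 CPM in ctrl, 30.1 at 2wk and 32.5 at 6wk.

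Other large-subunit genes with the strongest evidence at 6wk were Mrpl28 and Mrpl4. Mrpl28 (chr17:26123500-26126613), a relative of a bacterial ribosomal protein, had 61.6, 69.6 and 82.7 CPM (lowest, median, highest) in ctrl, 53.8, 65.0 and 66.7 at 2wk and 43.8, 48.8 and 56.1 at 6wk. Its 6wk mice all lay under its ctrl mice (log2 fold change -0.54, SE 0.08, adjusted p = 0.0001416). Mrpl4 (chr9:21002738-21008839), whose bacterial relative lines the tunnel through which new proteins leave, had 78.1, 88.9 and 108 CPM in ctrl and 58.0, 63.3 and 82.7 at 6wk. A single 6wk mouse lay above the lowest ctrl mouse (log2 fold change -0.43, SE 0.09, adjusted p = 0.001457). On library size only the call of Mrpl4 was lost (-0.17, adjusted p = 0.06492), and on log2(TPM + 1) both were (Mrpl28 -0.11, adjusted p = 0.1863, and Mrpl4 -0.05, adjusted p = 0.6172).

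Groups also did not overlap at 6wk for Mrpl2 and Mrpl24. Mrpl2 (chr17:46646229-46650139), a relative of a bacterial protein near the catalytic centre, had 41.0, 44.4 and 59.4 CPM in ctrl, 40.5, 49.0 and 55.0 at 2wk and 35.0, 36.5 and 39.98 at 6wk. It was thus lower at 6wk than in either other group, by -0.35 against ctrl (SE 0.09, adjusted p = 0.008497) and -0.38 against 2wk (SE 0.09, adjusted p = 0.02209), with no difference past the threshold between 2wk and ctrl (0.04, SE 0.09, adjusted p = 0.8585). Mrpl24 (chr3:87919506-87923672), a relative of a bacterial protein that helps the large subunit assemble, had 27.9, 29.9 and 32.8 CPM in ctrl and 22.3, 26.5 and 27.1 at 6wk (-0.22, SE 0.07, adjusted p = 0.03), and 23.1% of its 31-base words also occur in the overlapping gene Rrnad1. In all, 6 of 79 members did not overlap with ctrl at 6wk and were lower, against 3.43% of all genes tested, and none was higher, against 5.8%. Scaled by library size only, Mrpl24 was at 0.05 and on log2(TPM + 1) at 0.18, and Mrpl2 was at -0.08 and 0.07.

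Mrps17, Mrps27 and Mrps31 led the small subunit. Mrps17 (chr5:129715497-129722556), a relative of a bacterial protein that binds the ribosomal RNA, had 29.7, 39.6 and 43.2 CPM in ctrl, 30.0, 31.9 and 35.5 at 2wk and 23.7, 28.6 and 32.1 at 6wk. Only the lowest ctrl mouse lay within the range of the 6wk mice (log2 fold change -0.45, SE 0.09, adjusted p = 0.001001). Mrps27 (chr13:99344786-99415562), a mitochondria-specific protein with repeats that bind RNA, had 15.8, 17.5 and 23.1 CPM in ctrl, 14.3, 14.7 and 16.02 at 2wk and 11.1, 13.2 and 15.3 at 6wk. All its 6wk mice were under the lowest ctrl mouse (-0.48, SE 0.10, adjusted p = 0.002223). For Mrps31 (chr8:22411361-22429665), also specific to mitochondria, the values were 21.7, 23.5 and 27.7 CPM in ctrl and 15.3, 18.2 and 21.1 at 6wk, again without overlap (-0.40, SE 0.09, adjusted p = 0.00238). None of the 3 was called with library size only (-0.18, -0.21 and -0.14) or on log2(TPM + 1).

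**Figure D3:**
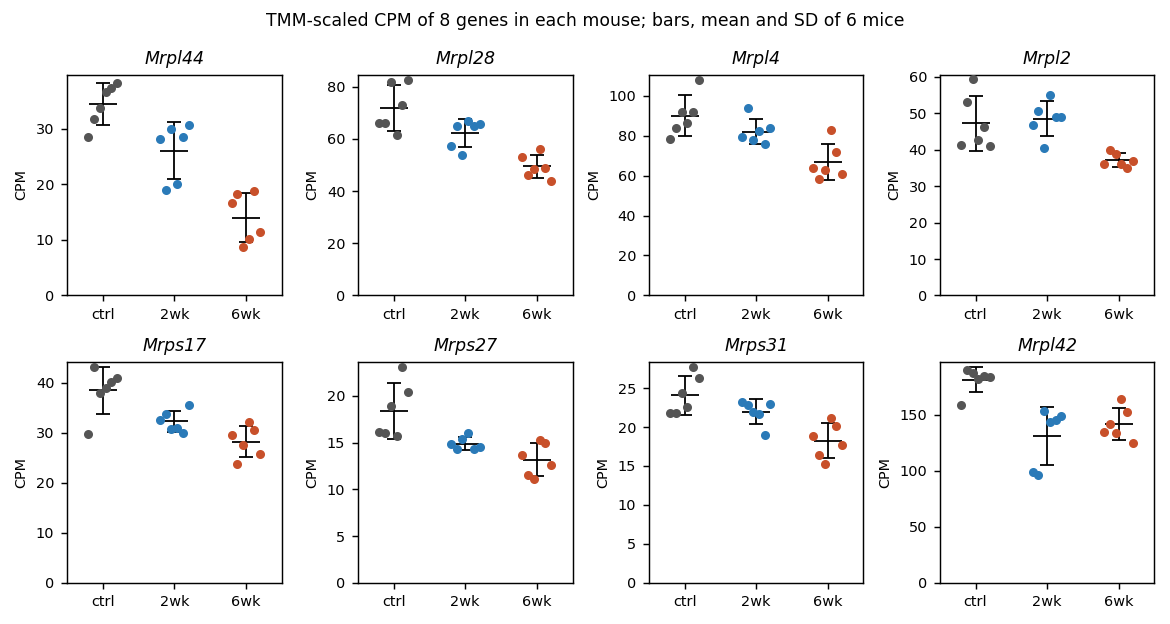
TMM-scaled CPM of 8 members (y axes, from 0) in each mouse by group (x axis). Points are mice, black lines the mean and SD of 6 mice. The 6wk mice of Mrpl44, at 8.67 to 18.8 CPM, lie under all ctrl and 2wk mice. For Mrpl42 the 2wk group splits into lower and higher mice between 96.7 and 153 CPM.

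Proteins with a special place in the ribosome were read apart. The gene set holds 3 versions of one bacterial protein: Mrps18b and Mrps18c, which sit in the small subunit, and Mrps18a, which sits in the large one. Mrps18b fell at 6wk (-0.33, SE 0.08, adjusted p = 0.00737), with 25.3, 28.8 and 32.4 CPM in ctrl and 18.8, 23.4 and 26.6 at 6wk. Mrps18c (-0.19, SE 0.09, adjusted p = 0.1255) and Mrps18a (-0.52, SE 0.22, adjusted p = 0.1021) did not pass the test, Mrps18a with a wide range of 15.9 to 46.2 CPM at 6wk. Mrps30, also a large-subunit protein despite its symbol, was at -0.14 (SE 0.13, adjusted p = 0.4894). Mrpl58, which acts in the rescue of stalled ribosomes, fell by 0.29 (SE 0.09, adjusted p = 0.0311). Mrpl12 (-0.35, SE 0.13, adjusted p = 0.06314) and Mrps36 (-0.27, SE 0.11, adjusted p = 0.09063) did not pass. On log2(TPM + 1) Mrps18b was at 0.09 and Mrpl58 at 0.10, neither called.

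Among the most and the least abundant members some passed the test and some did not. Mrpl42 fell (-0.35, SE 0.11, adjusted p = 0.0223), as did Mrps16 (-0.26, SE 0.08, adjusted p = 0.02468) and the low Mrpl19 (-0.33, SE 0.12, adjusted p = 0.04269), each losing its call without some single mice, while Mrps21 was at -0.18 (SE 0.08, adjusted p = 0.1224) and the low Mrps23 at 0.04 (SE 0.30, adjusted p = 0.948). The pseudogene Mrpl23-ps1 fell (-0.29, SE 0.09, adjusted p = 0.02052), and with Mrpl23 and Mrpl23-ps1 summed, a choice made after seeing the data, the value was -0.30 (adjusted p = 0.007813). Mrpl48-ps was at 0.31 (SE 0.33, adjusted p = 0.5458). By origin, 12 of 29 bacterial-related and 9 of 21 mitochondria-specific proteins of the large subunit fell at 6wk, with medians of -0.26 and -0.30. In the small subunit the counts were 5 of 16 and 5 of 10, with medians of -0.27 and -0.34. In these counts Mrps18a and Mrps30 stand with the large subunit, and Mrps36 and the pseudogenes are left out.

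At 2wk the same genes leaned the same way with few calls. A lower mean than in ctrl was found for 68 of 79 members, with a median log2 fold change of -0.16 in the large subunit and -0.13 in the small subunit, while the median of all genes tested was near 0. Mrpl42 and Mrpl50 fell and no small-subunit gene was called, which is 2 of 79 members, against 5.02% of all genes tested called in either direction, 1.93% called lower and 3.09% called higher. No member was past 1 on the log2 scale and called, as 0.903% of all genes tested were. At an unadjusted p under 0.05, 15 of 50 large-subunit and 10 of 29 small-subunit genes would have passed, as would 3074 of all 15054 genes tested. DESeq2 called 2 small-subunit genes, and its share over all genes is not given here. Mrpl42 (chr10:95480805-95501940) had 159, 184 and 190 CPM in ctrl and 96.7, 144 and 153 at 2wk, without overlap (-0.47, SE 0.11, adjusted p = 0.0189). Its 2wk mice 1 and 2 had 98.5 and 96.7 CPM and the others 143 to 153 CPM. In TPM those others had 396 to 437, against 393 to 437 in ctrl. Mrpl50 (chr4:49512596-49521093), a mitochondria-specific protein, had 35.7, 40.04 and 41.5 CPM in ctrl and 26.8, 31.4 and 35.0 at 2wk, also without overlap (-0.33, SE 0.09, adjusted p = 0.04028). Groups that did not overlap and were lower at 2wk made up 1.28% of all genes tested, and 1.96% did not overlap and were higher, none of them a member. Mrpl50 lost its call when any of 9 of the 18 mice was left out (highest adjusted p = 0.09251). With library size only neither Mrpl42 nor Mrpl50 was called (-0.31, adjusted p = 0.06089, and -0.17, adjusted p = 0.1614). On log2(TPM + 1) neither was called by limma (-0.24, adjusted p = 0.1435, and -0.04, adjusted p = 0.7172).

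From 2wk to 6wk the median change was -0.11 in the large and -0.14 in the small subunit. Beside Mrpl44 and Mrpl2, Mrpl28 fell further (-0.33, SE 0.08, adjusted p = 0.02969), and in the small subunit Mrps35 differed (-1.65, SE 0.43, adjusted p = 0.03208). These 4 of 79 compare with 5.33% of all genes tested called in either direction, 2.01% called lower and 3.31% called higher. Of these 4, Mrps35 was past 1 in size, and 1.14% of all genes tested were both called and past 1. The 2wk and 6wk mice were fully apart for Mrpl44, Mrpl2 and Mrpl18, the last named after its values were seen, against 1.27% of all genes tested for lower groups, and no member for higher groups, against 2.27%. Mrps35, a mitochondria-specific protein of the small subunit, rested on 2 mice. Its 2wk mice 5 and 6 had 23.4 and 22.4 CPM and the other 16 mice of the study 2.25 to 7.25 CPM. Without 2wk mouse 5 its adjusted p was 0.07217 and without 2wk mouse 6 it was 0.07631. The calls of Mrpl28 and Mrpl2 were also lost when single mice were left out, Mrpl28 for 8 of 18 mice (highest adjusted p = 0.07688) and Mrpl2 for 3 of 18 (highest adjusted p = 0.05284).

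Several members varied more between mice of one group than between groups. Apart from Mrps35 they were chosen after their values were seen. The highest mouse exceeded the lowest over 5-fold for 8 of the 78 members with a mean of at least 2 CPM (10.3%), against 7.55% of all genes tested at that level. Mrpl52 had 1.74 to 4.88 CPM in 6 mice, 2 of each group, and 19.9 to 42.7 CPM in the other 12. Mrpl17 had 4.10 to 7.07 CPM in 5 mice and 20.1 to 43.3 CPM in 13, with mice of every group on either side. Its 13 higher mice were again divided, at 20.1 to 25.1 CPM and at 35.8 to 43.3 CPM. Such steps within groups leave their fold changes uncertain, with an SE of 0.70 for Mrpl52 and 0.57 for Mrpl17 at 6wk against ctrl. Mrpl55 was at 26.4 to 32.4 CPM in 3 mice, 1 at 2wk and 2 at 6wk, and at 3.45 to 6.52 CPM in the rest, and its 6wk log2 fold change of 1.22 (SE 0.65, adjusted p = 0.1855) was the highest of any member. Mrpl35 was at 1.05 CPM in 1 mouse of the 6wk group and at 16.5 to 33.2 CPM elsewhere, and Mrps12 at 6.19 CPM in another and at 26.1 to 36.4 CPM elsewhere. The genotypes of these mice were not measured.

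**Figure D4:**
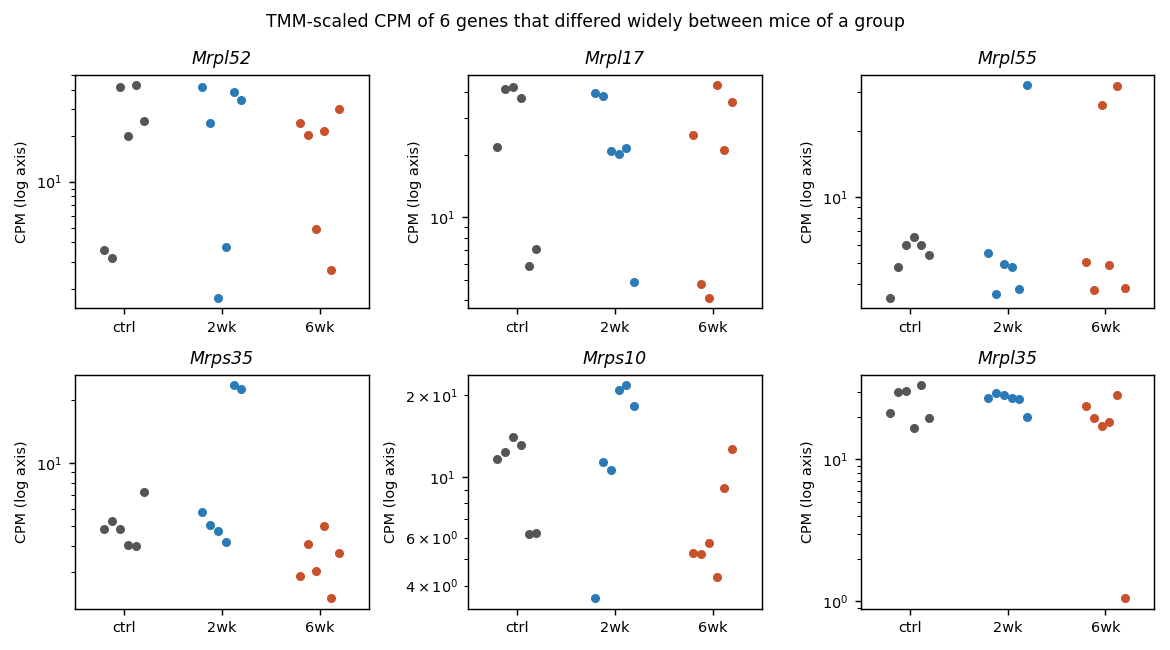
TMM-scaled CPM, on a log axis, of 6 members that differed widely between mice of one group. Points are single mice by group (x axis). Mrpl52 and Mrpl17 form separate low and high sets of mice in every group, and the high set of Mrpl17 is itself divided. Mrpl55 has 3 high mice and Mrps35 has 2.

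The other genes of the same machinery lay lower at 6wk as well, on the TMM scale. Of all genes tested 11.5% were called lower and 13.5% higher on that scale. The TMM counts in these and the following lists stand against these shares, and no such share is given for library size only. Of 5 mitochondrial ribosomal proteins with other symbols 4 fell, with Dap3, a small-subunit GTP-binding protein, at -0.41 (SE 0.08, adjusted p = 0.000952) and Chchd1 at -0.40 (SE 0.08, adjusted p = 0.000961). Of 27 assembly factors 6 fell (22.2%), among them C1qbp (-0.38, SE 0.09, adjusted p = 0.002922), an RNA-binding protein of the matrix, and the protease subunit Afg3l2 (-0.28, SE 0.06, adjusted p = 0.003268). Translation factors fell in 10 of 16 cases, led by the membrane insertase Oxa1l (-0.47, SE 0.08, adjusted p = 0.000221) and by Gfm2 (-0.30, SE 0.06, adjusted p = 0.0007126). Tests called 11 of 20 mitochondrial aminoacyl-tRNA synthetases and related enzymes lower, with Fars2 at -0.47 (SE 0.07, adjusted p = 0.0001004) and Qrsl1 at -0.54 (SE 0.12, adjusted p = 0.002446), and 6 of 14 genes of mitochondrial transcription and RNA handling, with Grsf1 at -0.40 (SE 0.06, adjusted p = 8.639e-05) and the transcription factor Tfb2m at -0.44 (SE 0.07, adjusted p = 0.0001473). None of these 5 lists held a gene that rose on the TMM scale, whereas by library size only 2 assembly factors and 1 transcription and RNA gene rose. On that second scale the median of the assembly factors was 0.063 and those of the other 4 lists ran from -0.15 to -0.017, all below the 0.24 of all genes tested.

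At 2wk the calls in these lists were few, and 1.93% of all genes tested were called lower. Chchd1 fell (-0.42, SE 0.08, adjusted p = 0.005114), Malsu1 (-0.41, SE 0.10, adjusted p = 0.01858) and Fastkd2 (-0.33, SE 0.08, adjusted p = 0.02306) were the 2 assembly factors called, and Slirp, which steadies mitochondrial mRNAs, was the only translation factor (-0.44, SE 0.09, adjusted p = 0.0103). Of the transcription and RNA genes Tefm (-0.37, SE 0.09, adjusted p = 0.02296) and Tfb2m (-0.28, SE 0.07, adjusted p = 0.02336) had the lowest adjusted p of 3 that fell. Of 9 regulators of nuclear mitochondrial genes, 3 rose and 2 fell at 6wk. Myc, which drives ribosome production among much else, rose (1.08, SE 0.21, adjusted p = 0.0008663), and the nuclear receptor Esrra fell (-0.25, SE 0.07, adjusted p = 0.009441), although by library size only 4 regulators rose and none fell.

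The genes whose mRNAs this ribosome translates, and the nuclear genes of the respiratory chain, had lower medians than the ribosome's own genes. Of 13 genes of mitochondrial DNA 12 fell at 6wk, with a median of -0.65, and mt-Nd4l (-0.65, SE 0.11, adjusted p = 0.000298) and mt-Atp6 (-0.70, SE 0.12, adjusted p = 0.0004552) had the lowest adjusted p. Of 81 nuclear respiratory chain genes 59 fell and 2 rose, with a median of -0.38, led by Uqcrfs1 (-0.57, SE 0.08, adjusted p = 6.786e-05) and Sdhd (-0.43, SE 0.06, adjusted p = 7.811e-05). By library size only, these medians were -0.38 and -0.12. For the ribosome of the cytosol, of 84 genes 3 rose and none fell at 6wk, with a median of -0.02, among them Rpl12 (0.40, SE 0.10, adjusted p = 0.005982) and Rps27l (0.38, SE 0.10, adjusted p = 0.006747). With library size only 46 of the 84 rose, and their median was 0.25, near the 0.24 of all genes tested on that scale. At 2wk, 3 genes of mitochondrial DNA fell, led by mt-Atp6 (-0.62, SE 0.12, adjusted p = 0.008235) and mt-Nd4l (-0.39, SE 0.11, adjusted p = 0.04493), as did 18 respiratory chain genes, led by Ndufb4 (-0.43, SE 0.08, adjusted p = 0.003432) and Ndufb2 (-0.45, SE 0.08, adjusted p = 0.004152), and 4 cytosolic ribosomal genes, led by Rps15a (-0.44, SE 0.06, adjusted p = 0.0004447) and Rps21 (-0.28, SE 0.07, adjusted p = 0.01919). The differences between these lists were not tested. Summed TPM of the members came to 14.4% to 19.1% of that of cytosolic ribosomal genes in ctrl and 13.1% to 16.02% at 6wk, with overlap. Against the mitochondrial DNA genes the share was 0.816% to 1.04% in ctrl and 1.06% to 1.28% at 6wk, with no overlap.

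**Figure D5:**
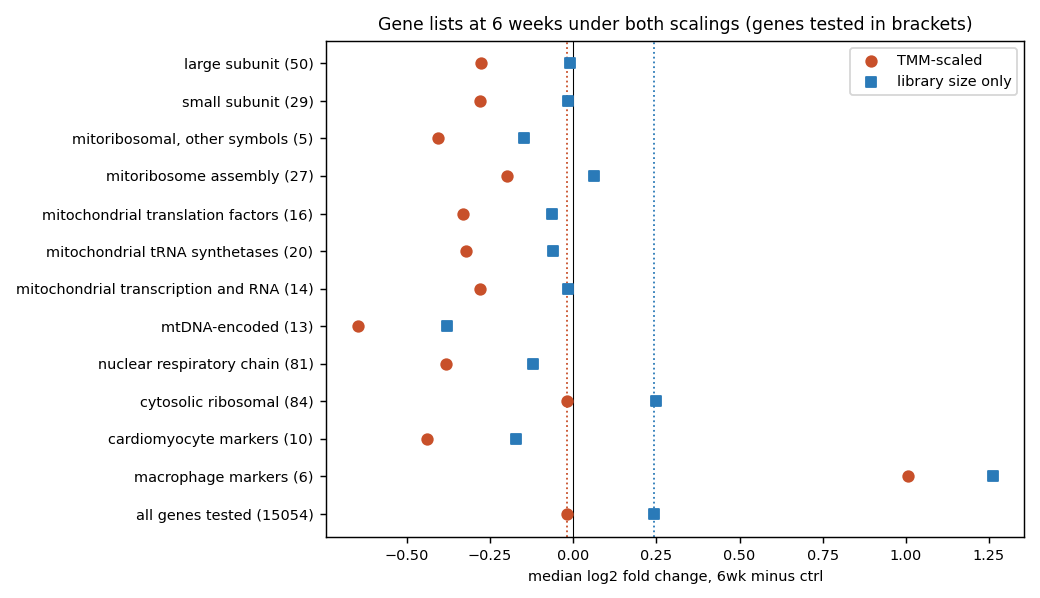
Median log2 fold change, 6wk minus ctrl (x axis), of each gene list (rows, number of genes tested in brackets) on TMM-scaled counts (circles) and with library size only (squares). Dotted lines mark the median of all genes tested on each scale, at -0.02 and 0.24. The members' medians lie left of the line of their own scale, and the cytosolic ribosomal genes lie on it.

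Markers of the cells in the tissue moved with these results. Of 10 cardiomyocyte markers 8 fell at 6wk (median -0.44), and their summed level was 86256 CPM in the median 6wk mouse and 110800 CPM in the median ctrl mouse, with Ryr2, the calcium release channel, at -0.60 (SE 0.10, adjusted p = 0.0001678). By library size only 2 of the 10 fell (median -0.17). Of 6 macrophage markers 5 rose (median 1.01), from a median sum of 137 CPM to 249 CPM. In bulk tissue, fewer cells of a type and less RNA per cell cannot be told apart, and the part of these markers in the members' change was not tested. Relative to the cardiomyocyte markers, the members' summed TPM was 7.47% to 11.5% in ctrl, 7.82% to 9.69% at 2wk and 9.20% to 10.2% at 6wk, which overlap. Ctrl mouse 4 alone gave the 11.5%, and the next ctrl mouse was at 9.30%. The medians were 8.47% in ctrl, 8.89% at 2wk and 9.79% at 6wk. Of 6 endothelial markers 2 rose and 2 fell, 66.7% called against 25% of all genes tested. Fibroblast (1 of 6 fell) and smooth muscle and pericyte markers (1 of 6 rose) gave few calls. Among T cell markers 1 of 3 rose, and among B cell markers 1 of 2. Schwann cell, adipocyte and atrial markers gave no call by edgeR's test.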

How the data were processed

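Bulk RNA from 18 mouse hearts, 6 per group, was sequenced. Per the labels, the authors' notes name CASAVA 1.8, Salmon 1.0 and GRCm38, and the study's methods describe STAR alignment, Salmon quantification and tximport. Estimated counts were deposited with decimals and without scaling across libraries. TPM, which the authors deposited as a second table, adjust for transcript length and depth inside each library.

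Counts were rounded and analysed with R 4.3.3, edgeR 4.0.16 and limma 3.58.1, and with DESeq2 1.42.0 as an alternative. Genes with 0.23 CPM in at least 6 mice were kept, libraries scaled by TMM, and 3 groups fitted in 1 quasi-likelihood model without covariates (two-sided, Benjamini-Hochberg over all 15054 genes, threshold 0.05). Scripts were tested on simulated data. CPM are TMM-scaled unless stated. Symbols came from the GENCODE annotation, and 29301 of 30072 genes had one. Exact shared 31-base words were counted between annotated transcripts. No 2 libraries were identical. Depth gives a floor of 3 counts, 0.194 to 0.260 CPM, which covers counting error only.

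Members named with values were those with the smallest adjusted p among called members (up to 6 lower and 4 higher per comparison), the 3 highest and 3 lowest by TPM in each subunit, pseudogenes, members not overlapping with ctrl at 6wk, and 7 with a special place in or beside the ribosome. From other lists the 2 genes with the smallest adjusted p against ctrl were named. Members and lists were chosen with earlier results of these data known.

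Same-numbered mice were compared for pairing: 2 of 18 pairs of samples had a correlation of deviations above 0.1 (-0.08 to 0.11), so the numbers were not treated as pairs. Alternatives covered scaling, filter, count model, unit, block, subunit assignment and leaving out each mouse. Upper-quartile scaling and the sum of Mrpl23 with its pseudogene were added after seeing the data. Whether the counting used strand is not given in the sources used here.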

Additional observations from a re-analysis of the deposited data

Results flagged for a closer look

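In 4 of 81 groups of 6 mice checked, the lowest mouse lay apart from the others by the Dixon criterion, which chance meets in about 1 of 20 groups. These were Mrpl12 in 2wk mouse 3 (99.5 CPM, next mouse 126), Mrpl24 in 6wk mouse 2 (22.3 CPM, next 26.2), Mrpl42 in ctrl mouse 1 (159 CPM, next 182) and Mrps31 in 2wk mouse 5 (19.0 CPM, next 21.7). The first was not called in any comparison.

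The change from ctrl differed between the 2 time points, by the direct test of 6wk against 2wk in edgeR, for 4 members. The log2 difference was -0.38 for Mrpl2, -0.33 for Mrpl28, -0.89 for Mrpl44 and -1.65 for Mrps35, all lower at 6wk, and both times shared the ctrl mice. For Mrps35 the 2 highest 2wk mice set the difference.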

How the results depend on the processing

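Under RLE size factors, upper-quartile scaling (added after seeing the data), removal of mtDNA-encoded genes, the stricter 1 CPM filter and subunits assigned by place in the ribosome, each subunit's counts and medians kept their direction and stayed within 1.5 times. With library size only the counts called (large, then small) were 0 and 1 at 2wk, 3 and 0 at 6wk against ctrl, and 1 large between times, with medians of -0.00152 and 0.024, -0.0097 and -0.016, and 0.00112 and -0.032. On log2(TPM + 1) the counts were 2 and 1, 8 and 5, and 1 and 0, with medians of 0.067 and 0.11, 0.10 and 0.12, and 0.037 and 0.053, and on log2(TPM + 0.1) the counts were equal and the medians 0.071 and 0.11, 0.11 and 0.13, and 0.043 and 0.054. These scales also move the median of all genes, and the shares of all genes called on them are not given here. At 2wk the large-subunit count was 1 without a filter, 1 on TPM scaled to total counts and 4 by DESeq2, and the small-subunit count was 2 by DESeq2 and 1 by limma voom with sample weights. Between times the small-subunit count was 2 by DESeq2 and 0 with only the 2 groups fitted. Leaving out 1 mouse gave 1 to 4 and 0 to 3 calls at 2wk, 15 to 27 and 6 to 12 at 6wk, and 1 to 6 and 0 to 2 between times, the highest 2wk and 6wk counts without ctrl mouse 1. The 6wk call was lost without 1 mouse for Mrpl19 in 9 cases, Mrps16 in 5, Mrpl24 and Mrpl58 in 4, Mrpl23-ps1 in 2 and Mrpl42 in 1. The causes were not tested.

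With the replicate number as a block, which does not pair these mice (each correlated best with its own number in 5 of 18 cases), 1 large-subunit gene was called at 2wk, 19 and 9 at 6wk, and 2 and 0 between times.

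Some of the genes named were negative at 6wk against ctrl on TMM-scaled counts and positive on another scale. Among those called on either scale these were, with library size only, Mrpl24 at 0.049 and Mrps16 at 0.00410. On log2(TPM + 1) and log2(TPM + 0.1) they were Mrpl19 at 0.33 and 0.38, Mrpl2 at 0.065 and 0.066, Mrpl23-ps1 at 0.11 and 0.11, Mrpl24 at 0.18 and 0.19, Mrpl42 at 0.0399 and 0.03996, Mrpl50 at 0.081 and 0.084, Mrpl58 at 0.10 and 0.10, Mrps16 at 0.15 and 0.15, Mrps18b at 0.085 and 0.087, Mrps21 at 0.20 and 0.20 (adjusted p = 0.04872 and 0.04889 by limma) and Mrps31 at 0.00210 and 0.00229. Called on neither scale were Mrps18c, Mrps21 and Mrps30 at 0.070, 0.081 and 0.12 with library size only, and Mrpl12, Mrps18c, Mrps30 and Mrps36 at 0.044, 0.20, 0.20 and 0.14 on log2(TPM + 1). For named members under the alternatives in the 3 comparisons, 2078 values kept direction and side of the threshold, 100 lost a call, 20 gained one and 130 turned sign, of which 106 (25 of them on leaving out 1 mouse) were called neither as reported nor under the alternative.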
